A study of Mus musculus with 4 samples.

Results

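Transcripts of 10 lysosomal proteases were followed in cells isolated as microglia: the cathepsins Ctsa, Ctsb, Ctsc, Ctsd, Ctsh, Ctsk, Ctsl, Ctss and Ctsz, and legumain (Lgmn). They are the rows of the deposited count table that carry these 10 symbols, out of 26051 features, and all 10 were among the 15840 genes that passed the filter on low counts. The cells came from mouse embryos at embryonic day 14 and were profiled by poly(A) RNA sequencing in 2 libraries titled ko (numbers 1 and 3) and 2 titled ff (numbers 2 and 5). The ko cells carried a conditional Cre-loxP deletion, made in microglia, of Hat1, which encodes a histone acetyltransferase. The labels do not spell out ff, which is taken here as the comparison group, and they give neither the Cre driver, the deleted exons, the strain nor the number of embryos behind a library. The p-values below therefore measure the spread between these libraries, which may be technical.

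Cathepsins are made as inactive precursors and are switched on in the acid interior of endosomes and lysosomes, where they digest proteins taken up by the cell or sent for turnover. Most of the family are cysteine proteases, Ctsd is an aspartic protease and Ctsa a serine carboxypeptidase, while legumain is a cysteine protease that cuts after asparagine and trims several cathepsins to their mature form. Macrophages, microglia among them, are rich in these enzymes, which they use to clear dead cells and to prepare peptides for presentation on class II molecules. Cystatins and some serpins hold the enzymes in check.

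Total counts ran from 14814846 to 18990917 a library, and same-group libraries were further apart than counting error alone gives, the chi-square of their counts being 13.9 (ko) and 7.25 (ff) times its degrees of freedom. The targeted gene Hat1 had 737 and 581 counts in ko libraries 1 and 3, against 650 and 1149 counts in ff libraries 2 and 5, with a log2 fold change of -0.61 and an edgeR adjusted p of 0.298, so its counts check the ko titles only in part. The log2 fold change of Hat1 was -0.91 (adjusted p = 0.00284) without ff library 2 and -0.67 (0.000114) without ko library 1. It was -0.57 (0.612) without ko library 3 and -0.25 (0.534) without ff library 5, the library with the most Hat1 counts. Ko library 1 held 3188 counts of the Y-linked gene Ddx3y and the other 3 libraries held 0. Xist, made in female cells, had 3 and 3986 counts in ko libraries 1 and 3, against 2847 and 3646 in ff libraries 2 and 5. By these genes ko library 1 was male and the other libraries were female. Without ko library 1 Ctss was higher by 0.48 on the log2 scale, in a fit that leaves 1 ko library and takes its spread from ff. Summed markers of border-associated macrophages had 13010 and 14910 CPM (counts scaled to library size with TMM factors) in ko libraries 1 and 3, against 19290 and 16680 CPM in ff libraries 2 and 5, and those of microglia 9847 and 9418 CPM in ko, against 11450 and 11240 CPM in ff. Of 10 border-associated macrophage genes tested 0 were higher in ko and 1, Cd163, lower. Of 9 microglia genes tested 2, Tmem119 and Aif1, were higher in ko and 1, Cx3cr1, lower, and the 7 markers other than Csf1r and Cx3cr1 summed to 2387 and 2103 CPM in ko libraries 1 and 3, against 2035 and 2068 CPM in ff libraries 2 and 5. In bulk libraries fewer cells of a type and less RNA per cell cannot be told apart, and the part of cell makeup in the values of the proteases was not tested.

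Of the 10 genes, 1 was higher in the ko libraries and 0 were lower at an adjusted p of at most 0.05 by edgeR's quasi-likelihood test, adjusted over all genes tested. Over all genes 1.70% passed in either direction, 1.19% as higher in ko and 0.518% as lower. At an unadjusted p under 0.05 there were 3 higher and 1 lower of the 10, where 8.62% of all genes tested were higher and 7.56% lower, and DESeq2 and limma-voom each called 1 higher and 0 lower. The gene called was Ctss, 1.42-fold higher, and the proteases with the largest counts, Ctsb, Lgmn and Ctsc, had log2 fold changes between -0.06 and 0.01. The median log2 fold change of the 10 was -0.0019, against 0.0075 over all genes tested, with 5 above and 5 below 0. The 2 ko libraries lay apart from the 2 ff libraries in 4 of the 10 genes, 3 of them higher in ko (Ctss, Ctsz and Ctsh) and 1 lower (Ctsa), where 49.6% of all genes tested had groups that did not overlap, 25.8% with ko higher and 23.8% with ko lower.

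The start regions of 3 of these genes are shown. Ctss and Ctsk were taken because they are next to each other on chromosome 3 but differed in level and in spread between libraries. Their log2 fold changes were 0.50 and 0.60, that of Ctsk with an interval of -1.18 to 2.38. The region of Ctsd, which differed little between the groups, was taken because it holds matches to a motif known from lysosomal genes. Each sequence is the RefSeq window of 250 bases before to 50 after the annotated start, 5′ to 3′ on the strand of the gene, from build GRCm38.p6. The counts were made on GRCm39, so these positions are not those of the count table. Capitals mark matches on either strand to the motifs searched, which were the interferon-stimulated response element (ISRE, GAAA, any 2 bases, GAAA), the composite element of PU.1 and IRF factors (EICE, GGAA, any 2 bases, GAAA), the core of PU.1 sites (GAGGAAG), the gamma-activated site (GAS, TTCNNNGAA), the CLEAR motif of lysosomal genes (TCACGTG), the CCAAT box (CCAAT) and the GC box (GGGCGG). The CLEAR letters overlap their own reverse complement, so 1 palindrome can count on both strands.
Ctss, chr3:95526536-95526835, + strand: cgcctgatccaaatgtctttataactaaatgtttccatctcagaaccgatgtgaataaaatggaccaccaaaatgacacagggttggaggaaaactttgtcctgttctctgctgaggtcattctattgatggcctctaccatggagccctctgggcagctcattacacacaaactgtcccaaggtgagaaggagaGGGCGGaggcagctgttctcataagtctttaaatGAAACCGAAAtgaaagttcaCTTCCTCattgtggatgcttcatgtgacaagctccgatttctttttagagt
Ctsk, chr3:95498960-95499259, + strand: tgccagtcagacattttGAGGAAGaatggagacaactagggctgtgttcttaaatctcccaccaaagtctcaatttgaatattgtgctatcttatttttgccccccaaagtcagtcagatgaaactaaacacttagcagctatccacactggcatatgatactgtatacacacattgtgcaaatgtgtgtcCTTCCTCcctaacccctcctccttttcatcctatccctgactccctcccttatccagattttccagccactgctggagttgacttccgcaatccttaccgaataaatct
Ctsd, chr7:142387778-142388077, - strand: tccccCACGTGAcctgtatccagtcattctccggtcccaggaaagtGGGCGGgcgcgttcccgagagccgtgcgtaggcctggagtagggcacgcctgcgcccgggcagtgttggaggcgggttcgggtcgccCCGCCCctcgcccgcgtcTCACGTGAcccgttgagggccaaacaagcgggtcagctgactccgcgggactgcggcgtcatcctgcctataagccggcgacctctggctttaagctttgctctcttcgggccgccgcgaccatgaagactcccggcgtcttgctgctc

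Windows were found for 8 of the 10 genes, 2 of which had more than 1. The Ctss window held 1 ISRE match, whose first base lies at -21 from the start, with 1 PU.1 match and 1 GC box. ISRE letters were found in 3.44% of the 32851 windows of this length, and Ctss was the only one of the 8 genes with them. PU.1 letters, in 13.6% of all windows, were also found in those of Ctsk and Ctsc, with 2 matches each. The Ctsd window held 3 CLEAR matches over both strands, and CLEAR letters were also found in 1 of the 2 windows of Ctsa (4 matches) and 1 of the 2 of Lgmn (1 match), against 3.77% of all windows. The letters of the EICE were found in 2.72% of all windows, the GAS in 8.3%, the CCAAT box in 37.4% and the GC box in 35.7%. A match of letters describes the window and does not show that a factor binds there.

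Ctss, the cathepsin that cuts the invariant chain from class II molecules and stays active at neutral pH, had 906 and 892 CPM in ko libraries 1 and 3, against 634 and 635 CPM in ff libraries 2 and 5. Both ko libraries lay above both ff libraries, and the libraries of a group nearly coincided. The mean of the 2 ko libraries was 899 ± 10.4 CPM (SD) and that of the 2 ff libraries 634 ± 0.818 CPM (SD), a log2 fold change of 0.50 with a standard error of 0.07 and a 95% interval of 0.35 to 0.66. The edgeR adjusted p was 0.0123. Fits that leave out a library take their spread from the other group. Ctss was past the threshold in 11 of 12 other settings, those that left out each library in turn included. It missed it with a correction offset for the length and GC content of transcripts, where its log2 fold change was 0.38 and its adjusted p 0.0582. Monocytes and neutrophils also make Ctss, and their summed markers had 138.5 and 127.6 CPM in ko libraries 1 and 3, against 100.7 and 88.9 CPM in ff libraries 2 and 5. Most of the sum came from Ccr2 (means of 60.2 CPM in ko and 42.2 in ff) and Plac8 (57.0 and 44.7). Ccr2 was called higher in ko (edgeR adjusted p = 0.0405). The neutrophil genes S100a8 and Ngp had log2 fold changes of -0.45 and 0.55 and did not pass. The part of monocytes and neutrophils in the values of Ctss was not tested. Ctss overlaps Hmgb1-ps5 in the RefSeq annotation, and whether reads were shared between them was not tested.

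The counts of Ctss beside those of Ctsb, or of the 10 genes summed, do not rest on how the libraries were scaled. Ctsb does not stand for the whole family, since Ctsz and Ctsh had log2 fold changes of 0.33 and 0.30, in the direction of Ctss. For each 100 counts of Ctsb a library held 9.74 and 9.38 counts of Ctss in ko libraries 1 and 3, against 6.49 and 6.69 in ff libraries 2 and 5. The mean ratio of the 2 ko libraries was 9.56 ± 0.252 (SD) and that of the 2 ff libraries 6.59 ± 0.141 (SD), 1.45-fold higher in ko. An exact two-sided permutation test of 2 against 2 libraries gave p = 0.333, the smallest it can give. Within the summed counts of the 10 genes, Ctss made up 3.61% and 3.52% in ko libraries 1 and 3, against 2.49% and 2.51% in ff libraries 2 and 5. The 10 genes together held 2.49% and 2.56% of all counts in ko libraries 1 and 3, against 2.52% and 2.55% in ff libraries 2 and 5, a share that overlapped between the groups.

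**Figure D1:**
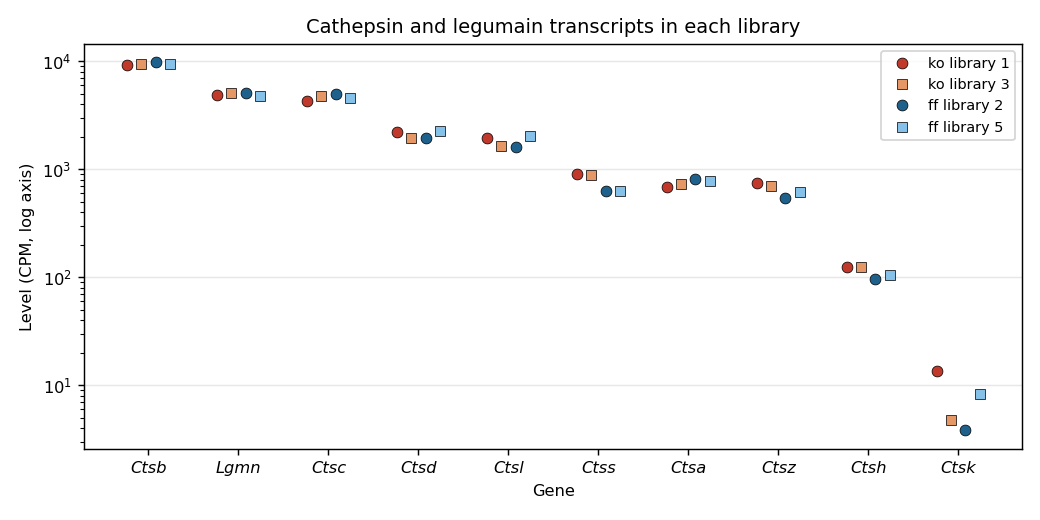
Level of each gene in CPM (log axis) in ko libraries 1 and 3 and ff libraries 2 and 5, 1 point a library, with genes ordered by their mean over the 4 libraries. Ctss had 906 and 892 CPM in ko against 634 and 635 CPM in ff, while the points of Ctsb, Lgmn and Ctsc overlapped between the groups.

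Ctsz and Ctsh are cathepsins that remove amino acids from the ends of proteins, Ctsz as a carboxypeptidase and Ctsh chiefly as an aminopeptidase. Ctsz had 751 and 696 CPM in ko libraries 1 and 3, against 542 and 611 CPM in ff libraries 2 and 5. Its log2 fold change was 0.33 ± 0.09 (SE) with an edgeR adjusted p of 0.126, so it did not pass although the groups did not overlap. Ctsh had 123.6 and 124.9 CPM in ko libraries 1 and 3, against 95.5 and 105.9 CPM in ff libraries 2 and 5. Its log2 fold change was 0.30 ± 0.08 (SE) and its edgeR adjusted p 0.143. Both values were smaller with the length and GC offset, at 0.18 for Ctsz and 0.17 for Ctsh. Both genes were past the threshold without a filter on low counts, where the adjusted p was 0.00125 for Ctsz and 0.0250 for Ctsh and where 1386 genes were called in all. Ctsz overlaps Nelfcd, which had 34.9 and 40.5 CPM in ko libraries 1 and 3, against 33.6 and 35.2 CPM in ff libraries 2 and 5.

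**Figure D2:**
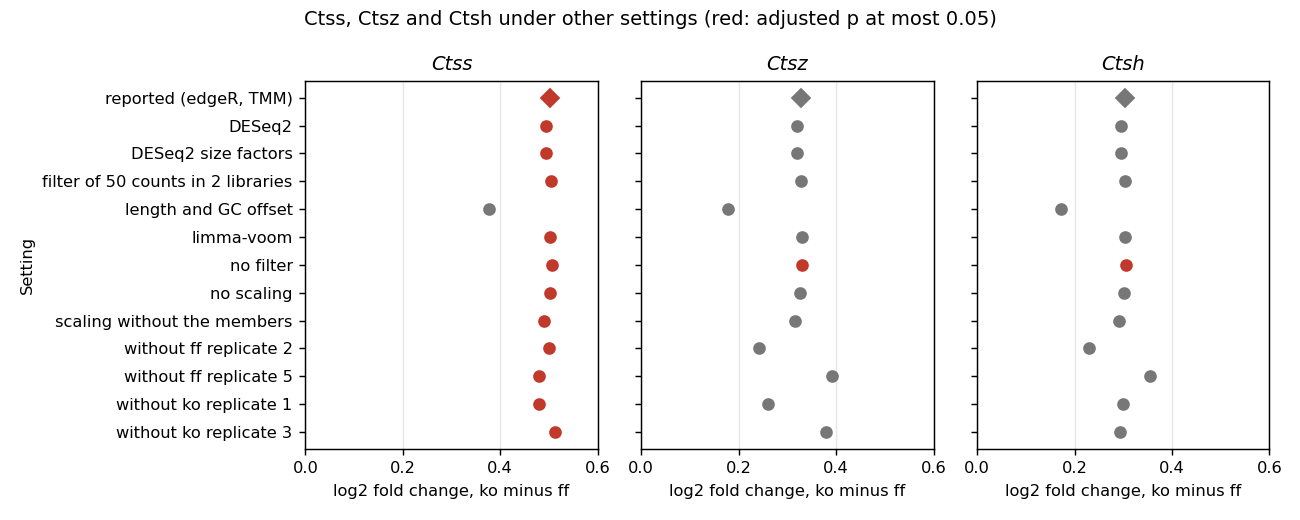
Log2 fold change, ko minus ff, of Ctss, Ctsz and Ctsh as reported (diamond) and under 12 other settings (circles), with adjusted p of at most 0.05 in red. Ctss lies between 0.38 and 0.51 and loses its call with the length and GC offset, and Ctsz and Ctsh have a call without a filter on low counts.

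Ctsa, also called protective protein because it stabilises lysosomal beta-galactosidase and neuraminidase in a complex, was the one gene of the 10 with both ko libraries below both ff libraries. It had 678 and 726 CPM in ko libraries 1 and 3, against 819 and 782 CPM in ff libraries 2 and 5. The log2 fold change was -0.19 ± 0.07 (SE) and the adjusted p was 0.268 by the edgeR test, so the difference did not pass. Its partners did not pass either. Glb1, the beta-galactosidase, had a log2 fold change of -0.15 (adjusted p = 0.556) and Neu1, the neuraminidase, one of 0.17 (adjusted p = 0.326). Ctsa overlaps Neurl2 and Pltp in the RefSeq annotation, and how the counting treated strand is not given in the sources used here, so reads of Ctsa and Pltp may have been split. Pltp, a phospholipid transfer protein, had 139.2 and 135.2 CPM in ko libraries 1 and 3, against 103.6 and 107.0 CPM in ff libraries 2 and 5 (adjusted p = 0.0561 by the edgeR test).

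**Figure D3:**
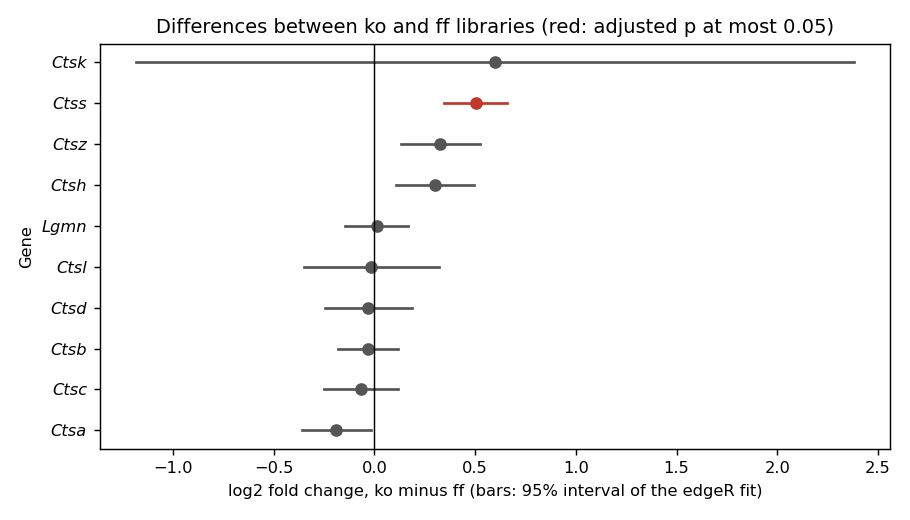
Log2 fold change, ko minus ff, of the 10 genes with the 95% interval of the edgeR fit, from the largest at the top. Ctss at 0.50 is the one gene at an adjusted p of at most 0.05, and the interval of Ctsk runs from -1.18 to 2.38.

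Ctsb, which both cuts within proteins and removes pairs of residues from their ends, had the largest counts of the family and ranked 3 among all features by mean CPM. It had 9308 and 9504 CPM in ko libraries 1 and 3, against 9761 and 9486 CPM in ff libraries 2 and 5. The groups overlapped, and the log2 fold change of -0.03 had a 95% interval of -0.18 to 0.12 (edgeR adjusted p = 0.844). Lgmn had 4903 and 5051 CPM in ko libraries 1 and 3, against 5067 and 4813 CPM in ff libraries 2 and 5. Its log2 fold change of 0.01 had an interval of -0.14 to 0.17 (edgeR adjusted p = 0.958), and its sign turned in 4 of 12 other settings. Both intervals lie below the 0.50 of Ctss. Ctsb overlaps Fdft1 in the RefSeq annotation, which had 28.3 and 35.4 CPM in ko libraries 1 and 3, against 32.6 and 36.1 CPM in ff libraries 2 and 5.

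Ctsc, the dipeptidyl peptidase that activates granule proteases of leukocytes, had 4298 and 4768 CPM in ko libraries 1 and 3, against 4927 and 4557 CPM in ff libraries 2 and 5. Its groups overlapped as well, with a log2 fold change of -0.06 and an interval of -0.25 to 0.12 (edgeR adjusted p = 0.736). Within both groups the library with the lower Ctsc was the one with the higher Ctsd, ko library 1 and ff library 5.

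Ctsd, Ctsl and Ctsk differed more between libraries of the same group than between the groups. So did Ctsc and Lgmn, with smaller differences within the groups. Ctsd, the main aspartic protease of lysosomes, had 2189 and 1944 CPM in ko libraries 1 and 3, against 1966 and 2253 CPM in ff libraries 2 and 5. Ctsl, a cysteine endopeptidase of broad specificity, had 1959 and 1628 CPM in ko libraries 1 and 3, against 1607 and 2016 CPM in ff libraries 2 and 5. For both genes ko library 1 and ff library 5 were high and ko library 3 and ff library 2 low. On the log2(CPM + 1) scale Ctsl differed by 0.27 between the ko libraries and by 0.33 between the ff libraries, against -0.01 between the group means. For Ctss the same differences were 0.02 within ko and 0.0026 within ff. Among the 1960 genes tested with a mean of at least 100 CPM, the median difference between libraries of a group, regardless of sign, was 0.084 in both groups. The log2 fold changes of Ctsd (-0.03) and Ctsl (-0.01) did not pass, with edgeR adjusted p of 0.911 and 0.972, and their signs turned in 2 and 3 of 12 other settings.

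Ctsk, a collagen-degrading cathepsin best known from osteoclasts, was the scarcest, with 254 and 75 counts in ko libraries 1 and 3, against 56 and 133 counts in ff libraries 2 and 5. This came to 13.5 and 4.72 CPM in ko, against 3.81 and 8.25 CPM in ff, again with ko library 1 and ff library 5 high. The log2 fold change of 0.60 ± 0.66 (SE) had an edgeR adjusted p of 0.715. It was -0.37 without ko library 1 and 1.24 without ff library 5. Fibroblasts also make Ctsk, and the summed level of 10 fibroblast and mural markers was 787 and 550 CPM in ko libraries 1 and 3, against 347 and 504 CPM in ff libraries 2 and 5. Their part in the values of Ctsk was not tested. The 8 osteoclast markers summed to 204 and 190.0 CPM in ko libraries 1 and 3, against 287 and 286.3 CPM in ff libraries 2 and 5. Of these Calcr, Dcstamp, Ocstamp and Oscar had at most 8 counts in any library, and of the 4 tested 0 were higher in ko and 2 lower. These were Mmp9 (log2 fold change -0.93, edgeR adjusted p = 0.00138) and Atp6v0d2 (-1.05, 0.00189). Arnt, on the other side of Ctsk from Ctss, had a log2 fold change of -0.14 (edgeR adjusted p = 0.423).

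**Figure D4:**
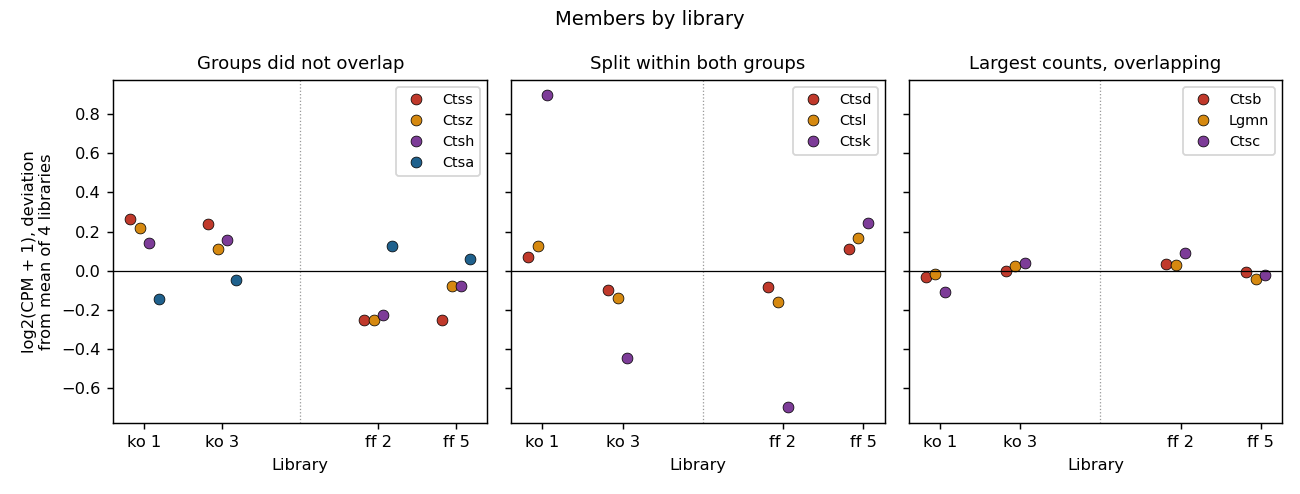
Deviation of each gene's log2(CPM + 1) from its mean over the 4 libraries, with ko libraries left of ff libraries and 1 point a gene and library. Ctss, Ctsz and Ctsh lie above 0 in both ko libraries and below 0 in both ff libraries, and Ctsd, Ctsl and Ctsk are high in ko library 1 and ff library 5.

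Levels of different genes were compared per kilobase of transcript, with lengths from GENCODE vM21 matched by symbol. With the median protein-coding transcript, Lgmn came first at 2593 CPM per kilobase over the 4 libraries. Ctsl (2161), Ctsb (2006), Ctsc (1860), Ctsd (1031), Ctsa (782), Ctss (566), Ctsz (451), Ctsh (149.7) and Ctsk (5.01) followed, all as CPM per kilobase. The libraries of neighbours in this order overlapped for Ctsl and Ctsb, for Ctsb and Ctsc, and for Ctss and Ctsz. With the longest transcript Lgmn stayed first at 2492 CPM per kilobase, while Ctsl moved to 292 and Ctsa to 206, below Ctsz. The annotated transcripts of Ctsl have a median length of 834 bases and a longest of 6168, so its place is not settled by these lengths. Ctsk was last under both.

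The genes whose pattern over the 4 libraries was most like that of Ctss, among 1951 other genes with a mean of at least 100 CPM, were Lgals1, Bax, Fcgr1, Aif1 and Coro1a. The root mean square difference of their centred log2 values from those of Ctss ran from 0.026 (Lgals1) to 0.044 (Coro1a). Lgals1, a galectin, had 268 and 275 CPM in ko libraries 1 and 3, against 195.2 and 195.7 CPM in ff libraries 2 and 5. Bax, a pore-forming protein of cell death, had 175.0 and 163.7 CPM in ko libraries 1 and 3, against 119.8 and 116.7 CPM in ff libraries 2 and 5. With the length and GC offset the log2 fold change of Bax was 0.23 (adjusted p = 0.251), against 0.52 as fitted without it. With 4 libraries this likeness is a description.

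Further genes of lysosomes and of linked processes were read from 6 lists of 113 genes in all, of which 104 could be tested. Of these 2 were higher in ko and 0 lower by the edgeR test (18 and 8 at an unadjusted p under 0.05, where 8.62% and 7.56% of all genes tested were), and DESeq2 called 5 and limma-voom 1, all higher. The 104 log2 fold changes had a median of 0.09, against 0.0075 over all genes. The class II list, with a median of 0.42, held 5 of the 18 genes higher at an unadjusted p under 0.05 by edgeR. The medians were 0.18 for the inhibitors, 0.07 for membrane proteins and 0.05 for glycosidases, lipases and cofactors. They were 0.03 for other peptidases and -0.0095 for sorting genes. The lists were the other lysosomal peptidases, inhibitors of cathepsins with related serpins, and lysosomal glycosidases with lipases and cofactors. The others were membrane proteins, sorting proteins and partners in class II processing, the last with genes of endosomal Toll-like receptors. Together they are called the 6 lysosomal lists, although not all of their genes act in lysosomes.

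Among the inhibitors and related serpins 1 of 10 tested genes was higher in ko and 0 were lower by the edgeR test. At an unadjusted p under 0.05 there were 3 higher and 0 lower. The gene called was Serpina3g, an intracellular serpin of mouse leukocytes that blocks cysteine cathepsins. It had 116 and 82 counts in ko libraries 1 and 3, against 12 and 12 counts in ff libraries 2 and 5. Its log2 fold change came to 2.85 ± 0.34 (SE), at an edgeR adjusted p of 0.00576, and it was past the threshold in 12 of 12 other settings. Serpina3g has close paralogs in the mouse, so reads may have been split among them. All 10 genes tested in this list had log2 fold changes above 0, with a median of 0.18. They include Serpinb9 (0.50, edgeR unadjusted p = 0.0106), which is not an established inhibitor of cathepsins. The most abundant, cystatin C (Cst3), had 443 and 421 CPM in ko libraries 1 and 3, against 369 and 411 CPM in ff libraries 2 and 5, with an edgeR adjusted p of 0.414. With the length and GC offset its log2 fold change was -0.0011. Cystatin B (Cstb) had a log2 fold change of 0.29 (edgeR adjusted p = 0.123) and Serpinb6a one of 0.13 (edgeR adjusted p = 0.549).

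Among the other peptidases 0 of 10 tested genes passed in either direction by edgeR, DESeq2 or limma-voom, and 1 was higher and 2 were lower at an unadjusted p under 0.05 by each. Tpp1, a tripeptidyl peptidase, had 740 and 781 CPM in ko libraries 1 and 3, against 889 and 864 CPM in ff libraries 2 and 5 (log2 fold change -0.20, edgeR adjusted p = 0.220). Ctsf, a further cysteine cathepsin, had a log2 fold change of -0.26 (edgeR adjusted p = 0.202), and Prcp, a carboxypeptidase, one of 0.02 (edgeR adjusted p = 0.942).

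Among 35 glycosidases, lipases and cofactors 1 was higher in ko and 0 lower by the edgeR test, and 5 and 5 at an unadjusted p under 0.05. It was Dnase2a, the lysosomal DNase that degrades DNA of engulfed cells, with 58.8 and 55.5 CPM in ko libraries 1 and 3, against 38.7 and 38.5 CPM in ff libraries 2 and 5. Its log2 fold change came to 0.57 ± 0.09 (SE), at an edgeR adjusted p of 0.0312. That call was lost when either ff library was left out, at an adjusted p of 0.0955 for ff library 2 and 0.0703 for ff library 5, with log2 fold changes of 0.57 and 0.54. The adjusted p was 0.0515 with limma-voom (log2 fold change 0.57) and 0.0648 with the length and GC offset (0.46). Psap, the precursor of the saposins, had 5375 and 5558 CPM in ko libraries 1 and 3, against 5006 and 5064 CPM in ff libraries 2 and 5 (edgeR adjusted p = 0.411). Grn, progranulin, and Npc2, a sterol carrier, had log2 fold changes of 0.14 and 0.27 and did not pass, with edgeR adjusted p of 0.364 and 0.117.

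Of 20 membrane proteins and 18 sorting genes 0 passed in either direction by the edgeR test, with median log2 fold changes of 0.07 and -0.0095. At an unadjusted p under 0.05 there were 3 higher and 1 lower of the membrane proteins and 1 higher and 0 lower of the sorting genes, and DESeq2 called 2 membrane proteins, Hgsnat and Tmem192, higher. Lamp1, a major glycoprotein of the lysosomal membrane, had 2446 and 1286 CPM in ko libraries 1 and 3, against 909 and 928 CPM in ff libraries 2 and 5. The ko libraries lay above the ff libraries but far from each other, and the edgeR adjusted p was 0.329. Leaving out ko library 1 gave a log2 fold change of 0.47, and leaving out ko library 3 gave 1.41. Laptm5 and Cd68, both of lysosomes of macrophages, had log2 fold changes of 0.07 and 0.14 with edgeR adjusted p of 0.641 and 0.401. M6pr, a mannose 6-phosphate receptor that carries new hydrolases to lysosomes, had 374 and 397 CPM in ko libraries 1 and 3, against 397 and 388 CPM in ff libraries 2 and 5. The log2 fold changes of Vps35, of the retromer coat, and Rab7, a GTPase of late endosomes, were -0.04 and 0.0070, with edgeR adjusted p of 0.822 and 0.974.

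Of 11 genes listed as partners in class II processing 0 passed in either direction by the edgeR test. Among their log2 fold changes 9 of the 11 were above 0, with a median of 0.42. The list includes Unc93b1 (0.15), Tlr7 (-0.07) and Tlr9 (0.53), which belong to Toll-like receptors and not to class II processing. At an unadjusted p under 0.05 there were 5 higher and 0 lower, and DESeq2 called 1, H2-Eb1, a class II chain, higher. Cd74, the invariant chain that Ctss cuts, had 160.2 and 157.5 CPM in ko libraries 1 and 3, against 214 and 126.4 CPM in ff libraries 2 and 5. The ko libraries lay between the ff libraries, with a log2 fold change of -0.10 (edgeR adjusted p = 0.904). This value became 0.33 once ff library 2 was left out and -0.46 once ff library 5 was. B cells also make class II genes, and summed lymphocyte markers had 46.4 and 42.1 CPM in ko libraries 1 and 3, against 26.6 and 19.6 CPM in ff libraries 2 and 5. Their part in the class II values was not tested. Unc93b1, which escorts nucleic acid-sensing Toll-like receptors to endosomes, and Tlr7, one of the receptors that cathepsins process, had log2 fold changes of 0.15 and -0.07 with edgeR adjusted p of 0.394 and 0.682.

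**Figure D5:**
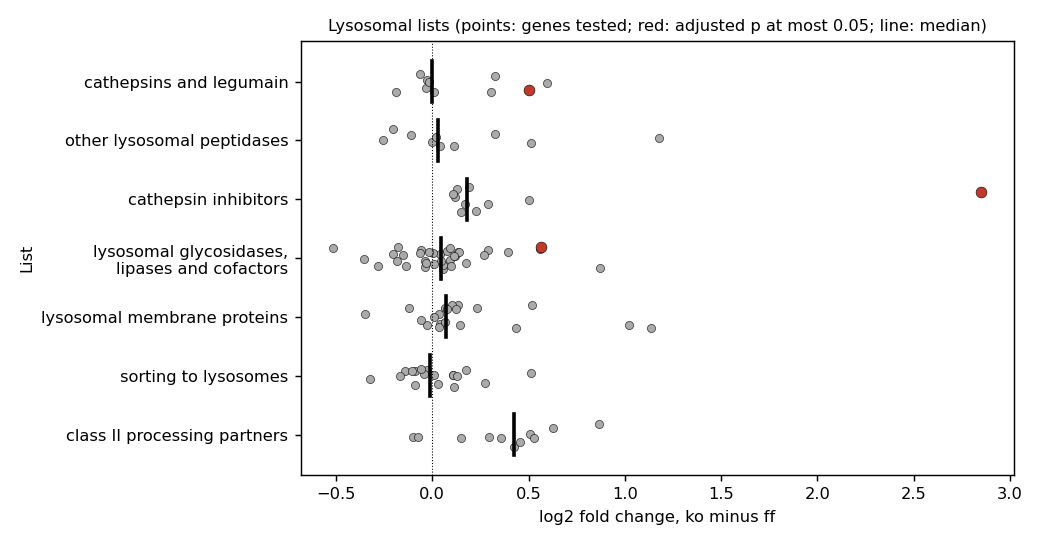
Log2 fold change, ko minus ff, of each gene tested in the 10 proteases and in the 6 lysosomal lists, with the median of each list as a black line and genes at an adjusted p of at most 0.05 in red. The red points are Ctss, Serpina3g at 2.85 and Dnase2a at 0.57.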

How the data were processed

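Total RNA came from a TRIzol extraction followed by oligo(dT) enrichment, per the labels' protocols. Reads were handled with CASAVA and aligned with HISAT2 2.0.5 to GRCm39, per the submitters' processing notes. How reads were assigned to genes, with which strand setting and which gene models, is not given in the sources used here. Values deposited by the authors are raw counts, 1 whole number for each gene and library. Of 26054 lines, 3 held stray text and were left out.

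Counts were filtered with filterByExpr (15840 genes, 99.85% of the counts), scaled with TMM factors and compared in edgeR 4.0.16 (R 4.3.3) by quasi-likelihood F tests with robust dispersion, with Benjamini-Hochberg adjustment over all genes tested and a threshold of 0.05. Log2 fold changes are ko minus ff, and standard errors come from the F statistic. Counts were simulated for ko against ff over 15836 genes, with the same dispersion for every gene. Of changes of 1.5-fold 20.9% were recovered, with 68.7% at 2-fold and 98.5% at 4-fold, and 7 of 132 calls were false. Alternatives were DESeq2 1.42.0, limma-voom (limma 3.58.1), DESeq2 size factors, no scaling, scaling without the 10 genes, no filter, a filter of 50 counts in 2 libraries, an offset for the GC content and length of GENCODE vM21 transcripts (90.82% of genes tested), and each library left out.

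The 10 genes and the lists were chosen with earlier results of these data known. From each lysosomal list the text names up to 4 genes past the threshold and the 3 most expressed, with Hat1. Up to 5 genes closest in pattern are named for a called protease, over log2(CPM + 1). Glb1, Neu1, Pltp, Arnt, Hgsnat, Tmem192, H2-Eb1 and the genes of the closing section were chosen after their values or the annotation were seen. Gene overlaps are from RefSeq on GRCm38.p6.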

Additional observations from a re-analysis of the deposited data

How the results depend on the processing

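The number of genes called was 270, and 554 with DESeq2, 175 with limma-voom, 1386 without a filter and 198 to 1213 when 1 library was left out. The number of the 10 proteases called was 1, and 0 with the length and GC offset and 3 without a filter (Ctss, Ctsz and Ctsh). It was 1 in each fit that left out a library. The number called in the 6 lysosomal lists was 2, and 5 with DESeq2, 1 with limma-voom, 1 with the length and GC offset, 20 without a filter and 4 to 11 when 1 library was left out. The summed level of the 10 proteases was 11600 CPM per kilobase with the median transcript and 8509 with the longest. The difference in their share of counts, ko minus ff, was -0.0135 percentage points, within the SD of 0.0469, and kept within that SD of it in every other setting run.

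Log2 fold changes that turned sign were those of genes that had not passed. With the length and GC offset these were Ctsl at 0.057, Lgmn at -0.099, Cd68 at -0.0036, Cst3 at -0.0011, Prcp at -0.014, Rab7 at -0.093 and Serpinb6a at -0.0059. Without ff library 5 they were Ctsd at 0.047, Ctsl at 0.13, Lgmn at -0.050, Prcp at -0.0072 and Rab7 at -0.063, and without ko library 3 Ctsd at 0.050, Ctsl at 0.11, Lgmn at -0.014 and Rab7 at -0.0054. Without ko library 1 they were Ctsk at -0.37, M6pr at 0.0063 and Prcp at -0.067, and without ff library 2 Cd74 at 0.33. With scaling without the 10 genes they were Lgmn at -0.0024 and Rab7 at -0.0063, and Rab7 was -0.0018 with DESeq2 and -0.0018 with its size factors. The causes were not tested. When 1 library was left out in turn, the log2 fold changes of these genes ran from -0.13 to 0.050 (Ctsd), -0.37 to 1.24 (Ctsk), -0.17 to 0.13 (Ctsl), -0.050 to 0.046 (Lgmn), -0.46 to 0.33 (Cd74), -0.074 to 0.0063 (M6pr), -0.067 to 0.083 (Prcp) and -0.063 to 0.052 (Rab7). Of the genes nearest to Ctss in pattern, Bax was called in 11, Fcgr1 in 11, Lgals1 in 10, Aif1 in 9 and Coro1a in 9 of 12 settings. With the length and GC offset, where Ctss lost its call, Bax (0.23), Lgals1 (0.34), Aif1 (0.33) and Coro1a (0.30) lost theirs too. Fcgr1 kept its call there, at a log2 fold change of 0.46. These genes were picked for their likeness to a called gene, so their calls are not separate support for it. No paired analysis was possible because the groups share no replicate number in the labels.

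With 2 libraries in a group, changes of 1.5-fold were mostly missed in simulated counts, so a gene that did not pass is not shown to be equal. The simulation gave every gene the same dispersion, so its recovery does not describe single proteases. The intervals of Ctsb (-0.18 to 0.12), Lgmn (-0.14 to 0.17) and Ctsc (-0.25 to 0.12) exclude a change as large as that of Ctss (0.50) in either direction. Those of Ctsz (0.13 to 0.53) and Ctsk (-1.18 to 2.38) do not. A fit that leaves 1 library in a group takes its spread to be that of the other group.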

Other observations

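Transcripts of granule proteases of other leukocytes were present at low counts. Ctsw, a cathepsin of cytotoxic lymphocytes, had 64 and 63 counts in ko libraries 1 and 3, against 25 and 25 counts in ff libraries 2 and 5, with a log2 fold change of 1.18 and an edgeR adjusted p of 0.144. Of 10 lymphocyte markers tested 1 (Gzma, a granule protease) was higher in ko, and all 10 log2 fold changes were above 0, with a median of 1.32. Those of Nkg7 (1.82), Ncr1 (3.12) and Gzmb (3.72), of cytotoxic lymphocytes, did not pass, with edgeR adjusted p of 0.142 (Nkg7), 0.172 (Ncr1) and 0.117 (Gzmb), and rest on at most 39 counts a library. The part of these cells in Ctsw was not tested. Ctsg, a serine protease of neutrophil granules, had 9 and 1 counts in ko libraries 1 and 3, against 2 and 4 counts in ff libraries 2 and 5. Mpo, a peroxidase of the same granules, had 156 and 1 counts in ko libraries 1 and 3, against 2 and 0 counts in ff libraries 2 and 5, and Elane, neutrophil elastase, had 38 and 0 counts in ko, against 4 and 0 counts in ff. Ngp, a granule protein of later neutrophils, had 3 and 59 counts in ko libraries 1 and 3, against 34 and 5 counts in ff libraries 2 and 5. It was low in ko library 1, where Mpo was high, and also in ff library 5, where Mpo had 0 counts.

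Hgsnat, a lysosomal membrane acetyltransferase of heparan sulfate breakdown, had 895 and 657 CPM in ko libraries 1 and 3, against 558 and 528 CPM in ff libraries 2 and 5. It did not pass, with an edgeR adjusted p of 0.193.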
